A study of Mus musculus with 4 samples.

Results

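The genes described here are 8 mouse genes of 2 groups, the mesothelial surface genes Upk3b, Upk1b, Lrrn4 and Msln and the Fraser complex genes Fras1, Frem1, Frem2 and Grip1. They were chosen by measured values, because Fras1 and Lrrn4 read higher in the pools lacking HP1 gamma. The genotype difference of those 2 genes is therefore given as a description, with no test. By RefSeq accession, 7 of the 8 genes had a named probe among the 18322 genes named on the array, and they were read by 8 probes of 41153. Frem1 had no probe named here.

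The samples were 2 pools of HP1 gamma -/- embryos and 2 pools of wild-type embryos, all carrying a Blimp1-mVenus transgene and all taken at embryonic day 11.5. The HP1 gamma -/- allele came from a gene trap in Cbx3, which encodes the heterochromatin protein HP1 gamma, and both parents of the -/- embryos carried 1 trapped copy. The transgene reports Blimp1 (Prdm1), which is made in primordial germ cells but also in other cell types, and mVenus-positive cells were sorted from genital ridges. RNA was pooled from 5 to 6 embryos per sample, with 500 to 3500 sorted cells per embryo, and each pool was read on 1 one-colour Agilent array.

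The mesothelium is the simple epithelium that lines the body cavity, and in the embryo its forerunner, the coelomic epithelium, covers the genital ridge and gives rise to somatic cells of the gonad. UPK3B and UPK1B are uroplakins, membrane proteins known from the bladder lining that mesothelial cells also make. LRRN4 is a membrane protein with leucine-rich repeats and MSLN (mesothelin) is a surface protein of the same cells. FRAS1, FREM1 and FREM2 are large extracellular proteins that depend on each other to stay at the basement membrane under epithelia. GRIP1 is a PDZ-domain adaptor inside the cell that helps bring FRAS1 and FREM2 to the basal surface. Loss of Fraser complex genes in mice causes blistering of the embryonic skin and failure of kidney formation.

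Promoter sequences are shown for 3 members that differ in which pools they were seen in: Lrrn4 and Frem2, seen in both HP1 gamma -/- pools, and Upk3b, seen in 1 of them. Each is the 250 bases before a RefSeq transcription start in the build GRCm38.p6, written 5′ to 3′ on the gene's strand with CpG dinucleotides in capitals. The windows of Lrrn4 and Frem2 lie inside the annotated gene spans (chr2:132866686-132894010 and chr3:53513938-53658593), and that of Upk3b lies directly before its gene (chr5:136038496-136044993).
Lrrn4, chr2:132880863-132881112, minus strand: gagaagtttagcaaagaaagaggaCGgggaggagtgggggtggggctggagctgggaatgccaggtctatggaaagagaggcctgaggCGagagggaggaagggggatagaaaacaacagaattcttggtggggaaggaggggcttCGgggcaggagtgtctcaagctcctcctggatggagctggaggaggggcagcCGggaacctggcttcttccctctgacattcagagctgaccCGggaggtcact
Frem2, chr3:53657356-53657605, minus strand: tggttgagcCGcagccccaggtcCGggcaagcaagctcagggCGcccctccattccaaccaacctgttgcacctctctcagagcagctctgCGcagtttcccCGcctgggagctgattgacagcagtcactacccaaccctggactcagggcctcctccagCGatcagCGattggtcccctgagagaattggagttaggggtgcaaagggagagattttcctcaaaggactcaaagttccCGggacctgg
Upk3b, chr5:136038246-136038495, plus strand: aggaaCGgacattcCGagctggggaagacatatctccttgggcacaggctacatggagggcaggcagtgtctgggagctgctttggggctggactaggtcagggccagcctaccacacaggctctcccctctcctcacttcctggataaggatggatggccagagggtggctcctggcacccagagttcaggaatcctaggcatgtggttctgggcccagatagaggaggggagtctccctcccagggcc
The Lrrn4 window holds 5 CpG, the Frem2 window 8 and the Upk3b window 2, where the median over 32851 RefSeq promoter windows of the same length was 6. None of the 3 windows holds GCGGGGGCG, the letters bound by EGR1 and WT1, or the GATA factor letters AGATAA and TGATAA, searched on both strands. Of all windows, 2.57% hold the EGR1 and WT1 letters and 16.6% a GATA match. Grip1 and Frem1 have 3 and 2 promoter windows in the same table, also with neither match.

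Each level is the log2 of a processed signal after subtraction of the 75th percentile of that array, where a level of 0 stands at the percentile. Different probes bind with different strength, so levels are compared between pools and not between genes. A signal is called well above background where the scanner software marked it so. The faintest such signal lay at 10.6 and 10.1 intensity units on the HP1 gamma -/- arrays and at 14.6 and 12.7 on the wild-type arrays (replicates 1 and 2). The 75th percentile was 125 and 291 units on the HP1 gamma -/- arrays and 188 and 219 units on the wild-type arrays. Repeat spots of the same probe, where a probe had at least 5 with a mean signal of 10 to 50 units, differed by a median SD of 0.16 to 0.21 log2 units within an array. The targeted gene was far lower in both pools labelled HP1 gamma -/-, where Cbx3 had levels of -1.24 and -2.78, against 5.89 and 5.72 in the wild-type pools (probe A_51_P117162). The germ cell label held unevenly: 9, 2, 8 and 8 of 9 germ cell markers were well above background in HP1 gamma -/- replicates 1 and 2 and wild-type replicates 1 and 2. Dppa3, a marker of primordial germ cells, had levels of 3.58 and -7.04 in the HP1 gamma -/- pools, the second not well above background, against 1.60 and -0.26 in the wild-type pools. HP1 gamma -/- replicate 2 thus stood apart from its label, and results are also given for each HP1 gamma -/- pool alone. All 12 endothelial, 9 leukocyte and 10 stromal markers with a probe were well above background on all 4 arrays. The stromal signal was uneven all the same. Divided by the array's 75th percentile, its sum was 12.7 and 88.4 in the HP1 gamma -/- pools, against 25.6 and 10.8 in the wild-type pools. All 10 stromal markers were higher in the HP1 gamma -/- mean (median difference 0.76), where 46.9% of all tested genes were higher. At least 2-fold higher without overlap was 1 of them, where 4.56% of all tested genes met that rule. Apart from Col5a1 and Postn, each lay below the wild-type mean in HP1 gamma -/- replicate 1, so replicate 2 set the higher mean. The median level of the 10 was -0.20 and 1.49 in the HP1 gamma -/- pools, against 0.18 and -0.76 in the wild-type pools. In sorted pools like these, a change in the number of cells of a type cannot be told apart from a change of RNA within those cells. The pools are separate embryo pools per the labels, and 2 per genotype limit the precision of every value.

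Fras1, the founding member of the Fraser complex, was seen in all 4 pools and read higher in both HP1 gamma -/- pools. The spot gave 117 ± 12 and 319 ± 32 intensity units on the HP1 gamma -/- arrays, against 36.0 ± 4.8 and 26.5 ± 3.7 units on the wild-type arrays (± the error the scanner software gives for that spot). As levels these were -0.09 and 0.14 in the HP1 gamma -/- pools, against -2.38 and -3.05 in the wild-type pools. The HP1 gamma -/- pools were both high and close together, the wild-type pools were both low, and the groups did not overlap. The means were 0.02 ± 0.16 in HP1 gamma -/- and -2.71 ± 0.47 in wild type (SD, n = 2 each), a difference of 2.74 log2 units or 6.67-fold. Each HP1 gamma -/- pool alone stood above the wild-type mean by a similar amount, 2.62 log2 units for replicate 1 and 2.85 for replicate 2.

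Frem2, the partner of Fras1 in the extracellular complex, was seen in both HP1 gamma -/- pools by both of its probes and in neither wild-type pool. By probe A_51_P214503 its levels were -0.90 and -1.75 in the HP1 gamma -/- pools, against -4.01 and -4.25 in the wild-type pools. By probe A_52_P5491 they were -1.14 and -1.98 in the HP1 gamma -/- pools, against -5.62 and -5.06 in the wild-type pools. The order of the HP1 gamma -/- pools was thus the reverse of that for Fras1, with replicate 1 the higher by 0.85 and 0.84 log2 units on the 2 probes. Because neither wild-type array measured Frem2, only a bound can be given for its fold. The bound sets the HP1 gamma -/- mean against the wild-type mean of the probe's own level or, where higher, the level of the faintest signal well above background on that array. A probe can go uncalled above that faintest level, so each bound is approximate. In wild-type replicate 1, for example, Gata4 was not called at -3.52, where the faintest level called was -3.68. Frem2 was at least 5.96-fold higher by probe A_51_P214503 and at least 5.05-fold higher by A_52_P5491. It entered the test through the HP1 gamma -/- arrays alone and missed the threshold of 0.05 over all 22440 tested probes (limma adjusted p = 0.19 and 0.15).

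Grip1, the intracellular adaptor, was well above background in all 4 pools. Its levels were -1.99 and -1.46 in the HP1 gamma -/- pools, against -2.44 and -2.88 in the wild-type pools. The groups did not overlap, but HP1 gamma -/- replicate 1 and wild-type replicate 1 lay 0.45 log2 units apart, the same as the gap between the wild-type pools. The means were -1.72 ± 0.38 in HP1 gamma -/- and -2.66 ± 0.32 in wild type (SD, n = 2 each), a difference of 0.94 log2 units (SE 0.30) or 1.91-fold, which missed the threshold (limma adjusted p = 0.61).

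**Figure D1:**
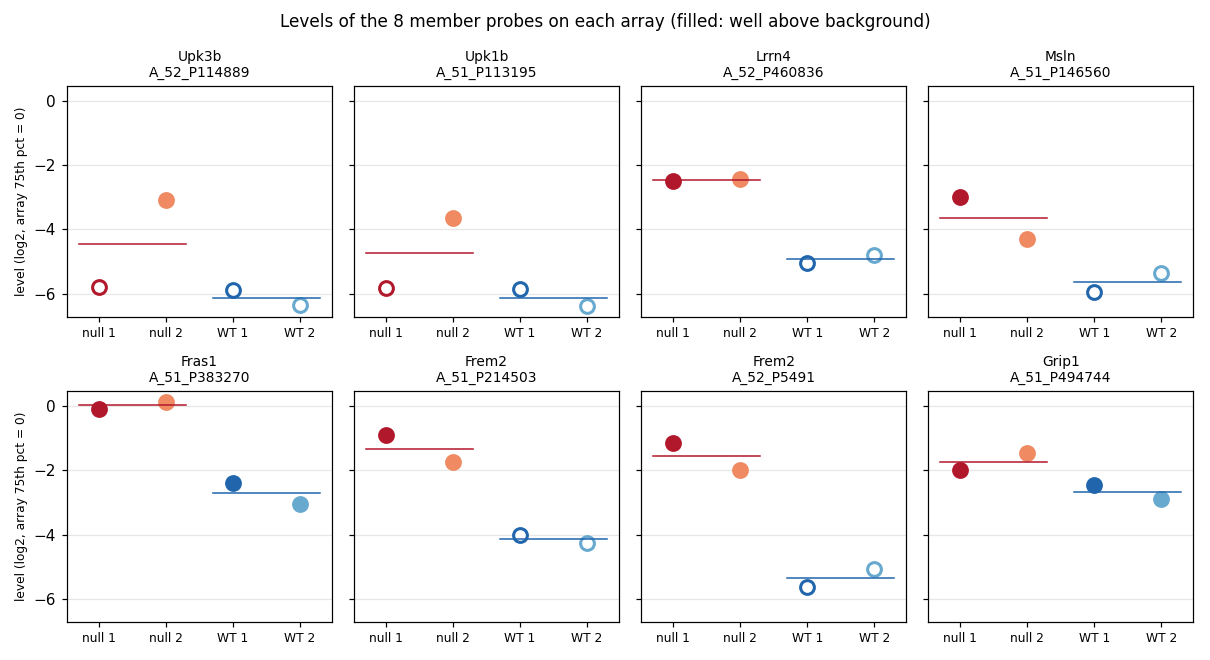
Level of each member probe (log2 processed signal, array 75th percentile at 0) in HP1 gamma -/- replicates 1 and 2 (null, red and orange) and wild-type replicates 1 and 2 (WT, dark and light blue), with filled points well above background, open points not, and lines at the group means. Lrrn4, Msln and Frem2 are filled only in the HP1 gamma -/- pools, Upk3b and Upk1b only in HP1 gamma -/- replicate 2, and Fras1 and Grip1 in all 4 pools.

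Lrrn4 was seen in both HP1 gamma -/- pools at nearly the same level and in neither wild-type pool. Its signal was 22.0 ± 3.1 and 53.9 ± 5.8 intensity units on the HP1 gamma -/- arrays, against 5.66 ± 3.11 and 7.88 ± 2.74 units on the wild-type arrays (± the scanner software's error). The levels were -2.50 and -2.43 in the HP1 gamma -/- pools, against -5.05 and -4.80 in the wild-type pools. The groups did not overlap, and the HP1 gamma -/- pools were 0.07 log2 units apart. Lrrn4 was at least 2.70-fold higher in the HP1 gamma -/- pools, with means of -2.46 ± 0.05 in HP1 gamma -/- and -4.92 ± 0.18 in wild type (SD, n = 2 each).

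Msln was measured on both HP1 gamma -/- arrays, close to the faintest signals they could call. It gave 15.8 ± 2.7 and 14.7 ± 2.5 intensity units on the HP1 gamma -/- arrays, against 3.06 ± 3.05 and 5.36 ± 2.63 units on the wild-type arrays, where it was not well above background. The levels were -2.98 and -4.31 in the HP1 gamma -/- pools, against -5.94 and -5.35 in the wild-type pools. By level, replicate 1 was the higher of the HP1 gamma -/- pools, by 1.32 log2 units, and the groups did not overlap. In intensity units those 2 pools lay within the scanner software's error of each other, so that gap rests on the scaling. The bound on its fold was accordingly small, at least 1.19-fold higher. It too entered the test through the HP1 gamma -/- arrays alone, and it missed the threshold (limma adjusted p = 0.53).

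Both uroplakin genes were seen in a single pool. Upk3b had 2.23 ± 2.22 and 34.1 ± 4.0 intensity units on the HP1 gamma -/- arrays, against 3.18 ± 3.17 and 2.66 ± 2.66 units on the wild-type arrays. Upk1b had 2.21 ± 2.20 and 23.5 ± 3.2 units on the HP1 gamma -/- arrays, against 3.21 ± 3.20 and 2.62 ± 2.61 units on the wild-type arrays. Both were well above background in HP1 gamma -/- replicate 2 only, and on the other 3 arrays the signal was about as large as the scanner software's error for the spot. As levels, Upk3b had -5.81 and -3.09 in the HP1 gamma -/- pools, against -5.88 and -6.36 in the wild-type pools. Upk1b had -5.82 and -3.63 in the HP1 gamma -/- pools, against -5.87 and -6.39 in the wild-type pools. The -3.63 lay below the faintest level called on HP1 gamma -/- replicate 1 (-3.56), so the 2 HP1 gamma -/- pools are not shown to differ in Upk1b. The higher level in replicate 2 alone sets the HP1 gamma -/- mean of each gene, so no fold is given, and neither gene entered the test, which needed both arrays of a genotype well above background. Signal in HP1 gamma -/- replicate 2 alone was found for 4.57% of all named genes.

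**Figure D2:**
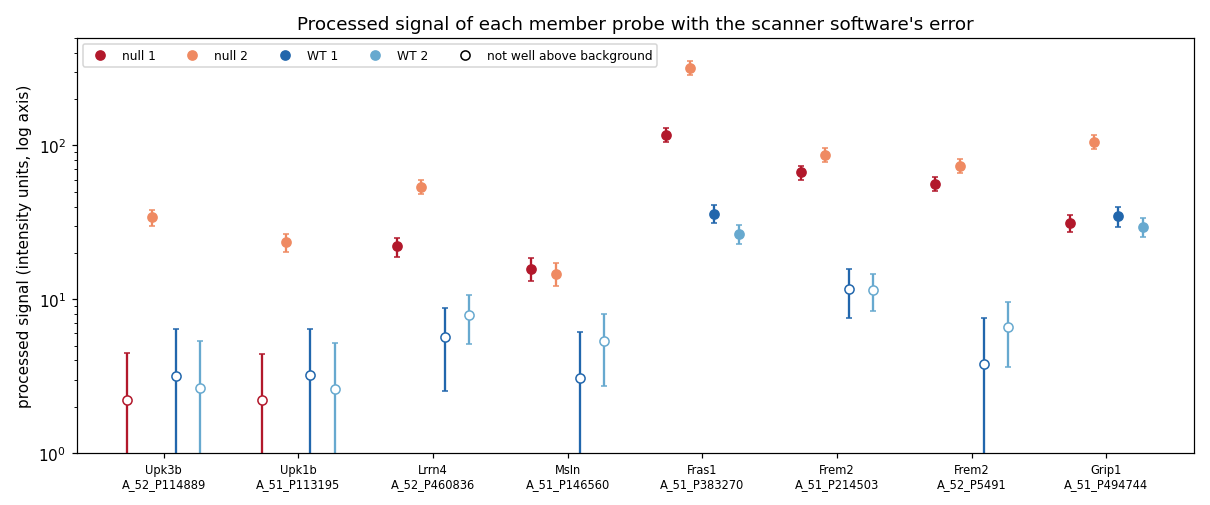
Processed signal of each member probe (intensity units, log axis) in HP1 gamma -/- replicates 1 and 2 (null) and wild-type replicates 1 and 2 (WT), with bars for the scanner software's error of that spot, cut at the foot of the axis where they reach lower. Upk3b and Upk1b rise above the error only in HP1 gamma -/- replicate 2 (34.1 and 23.5 units), while Fras1 lies at 117 and 319 units in the HP1 gamma -/- pools, against 36.0 and 26.5 in the wild-type pools.

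Of the 5 member genes tested, 4 had mean levels at least 2-fold higher in the HP1 gamma -/- pools without overlap, by the brightest probe of the gene and with signals below background taken as they stood. With the bound in place of the fold where wild type did not measure the gene, 3 reached 2-fold, since Msln was bounded at 1.19-fold. Grip1 stayed short of 2-fold and none was lower. Among all 12120 tested genes 4.56% met the same rule as higher and 0.635% as lower. The choice of members used this contrast, so nothing is read from that count. In addition, Lrrn4, Msln and Frem2 passed the filter on dim probes through the HP1 gamma -/- arrays alone. Of all genes seen on both HP1 gamma -/- arrays and neither wild-type array (1.29% of named genes), 80.5% met the same rule, so such genes had little room to do otherwise. Fras1 is the 1 gene of the 4 that was also measured in wild type, and among genes well above background on all arrays the rule was met by 2.51%. Frem2, Msln and Grip1, the members given a test, missed the limma threshold, which 2 of 22440 probes passed (0.00891%).

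The members differed in which HP1 gamma -/- pool was the higher. Fras1 and Lrrn4 were high in both HP1 gamma -/- pools to nearly the same degree. Frem2 was high in both, and higher in replicate 1, the pool with the germ cell markers. Msln was also higher in replicate 1, and its level of -4.31 in replicate 2 lay below the faintest level called on either wild-type array (-3.68 and -4.11), so that pool is not shown to differ from wild type. Upk3b and, to a lesser degree, Grip1 were higher in replicate 2, the pool where most germ cell markers were not well above background. Upk1b was seen in that pool alone, but at a level below the faintest called on replicate 1. With 1 pool of each kind, these orders have no replicate check.

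**Figure D3:**
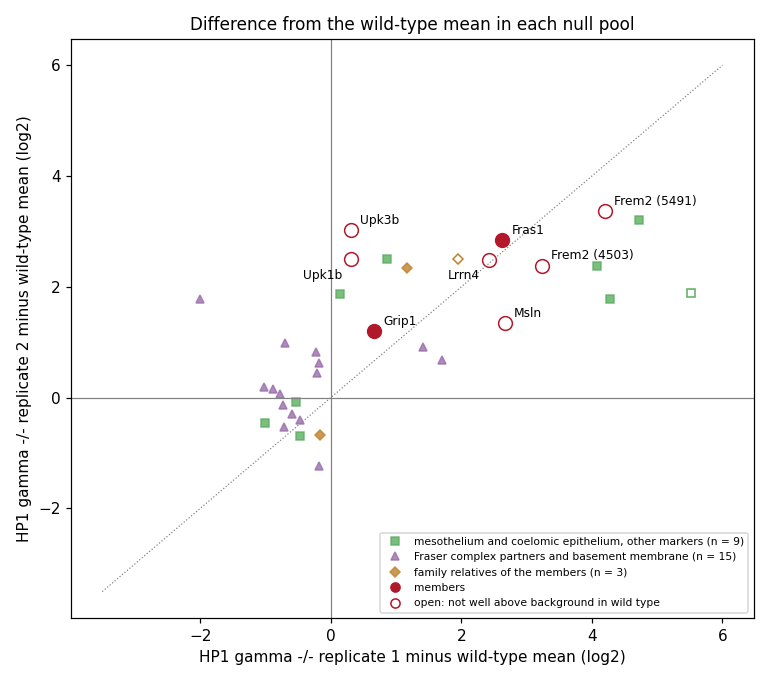
Difference of each gene from the wild-type mean (log2) in HP1 gamma -/- replicate 1 (x axis) and replicate 2 (y axis), for the member probes (red circles) and the tested genes of 3 related lists, with a dotted line where both pools differ equally. Open symbols were not well above background in wild type, so their distances from 0 are not measured sizes. Of the filled members, Fras1 lies at 2.62 and 2.85 and Grip1 at 0.67 and 1.20.

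Other markers of the mesothelium and coelomic epithelium did not move as 1 block. Of 19 listed genes 18 had a probe and 9 could be tested, 6 of them higher and 3 lower in the HP1 gamma -/- pools, with a median difference of 1.68 log2 units. Of all tested genes 46.9% were higher in the mean, with a median difference of -0.02. At least 2-fold higher without overlap were 5, the keratin genes Krt7, Krt8, Krt18 and Krt19, which other simple epithelia also make, and Rspo1, a Wnt-pathway ligand of the gonad. Among all tested genes 4.56% met that rule. The 3 lower genes were Gpm6a and Podxl, by -0.73 and -0.58 log2 units without overlap, and Aldh1a2, by -0.31 with overlap. Krt8 had levels of 2.61 and 1.09 in the HP1 gamma -/- pools, against -2.19 and -2.02 in the wild-type pools (log2 difference 3.96, SE 0.55, limma adjusted p = 0.23). Krt19 was at least 11.6-fold higher, with levels of 1.46 and -2.17 in the HP1 gamma -/- pools, against -3.81 and -4.30 in the wild-type pools, which did not measure it well above background (limma adjusted p = 0.63). Krt18 and Krt7 differed by 3.22 and 3.03, and Rspo1 by 1.68 (limma adjusted p = 0.43, 0.61 and 0.69). The 4 keratins were higher in HP1 gamma -/- replicate 1 than in replicate 2, as Frem2 and Msln were by scaled level only. None of the 9 genes passed the threshold. Krt19, again like Frem2 and Msln, entered the test through the HP1 gamma -/- arrays alone. Of all genes seen that way 80.5% met the 2-fold rule, so nothing is read from its place among the 5. The bound for Krt19 also rests on a mean of HP1 gamma -/- pools that lay 3.62 log2 units apart (SD 2.56).

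Transcription factor genes of the same epithelium did not share 1 order over the 4 pools. Wt1, a regulator of mesothelium and gonad, had levels of 0.23 and 1.96 in the HP1 gamma -/- pools, against 0.62 and -0.44 in the wild-type pools, so the groups overlapped (limma adjusted p = 0.84). Well above background in HP1 gamma -/- replicate 2 only, as Upk3b and Upk1b were, were 5 of the 18 genes: Bnc1, Bnc2, Tbx18, Emx2 and Gata4, which are named after their values were seen. The same was true of 4.57% of all named genes, and the level that could be called was lowest on that array (-4.84). Bnc1, for the zinc finger protein basonuclin, had levels of -4.95 and -0.47 in the HP1 gamma -/- pools, against -4.06 and -6.10 in the wild-type pools. Gata4 had -4.44 and -3.55 in the HP1 gamma -/- pools, against -3.52 and -3.96 in the wild-type pools, so its flag but not its level set replicate 2 apart. Bnc2 in replicate 2, at -3.71, lay below the faintest level called on HP1 gamma -/- replicate 1 (-3.56) and wild-type replicate 1 (-3.68). Tcf21, Lhx9 and Nr5a1 were also well above background in 1 wild-type pool each. Nr5a1 was highest in wild-type replicate 2, at -2.58, against -3.69 and -3.20 in the HP1 gamma -/- pools. In all, 8 and 17 of the 18 genes were well above background in HP1 gamma -/- replicates 1 and 2, against 10 and 9 in wild-type replicates 1 and 2. Over all spots these shares were 53.8% and 63.3% in the HP1 gamma -/- pools, against 53.3% and 56.7% in the wild-type pools. The summed signal of the 18 genes, divided by the array's 75th percentile, was 39.4 and 20.4 in the HP1 gamma -/- pools, against 7.71 and 4.65 in the wild-type pools. Without the 4 keratins the sums of the other 14 genes were 3.82 and 10.6 in the HP1 gamma -/- pools, against 5.41 and 3.17 in the wild-type pools, so HP1 gamma -/- replicate 1 then lay between the wild-type pools. The part that a different share of epithelial cells in the pools has in the member differences was not tested.

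Genes of the basement membrane under the Fraser complex were read from a list of partners and matrix genes. Of 20 listed genes 18 had a probe and 15 were tested, 6 higher and 9 lower in the HP1 gamma -/- pools, with a median difference of -0.36 log2 units. The share higher is near the 46.9% of all tested genes, and nothing is read from it. At least 2-fold higher without overlap were Npnt and Lama5, where 4.56% of all tested genes met that rule. Npnt encodes nephronectin, a matrix protein that the Fraser complex holds at the basement membrane and a ligand of integrin alpha 8. Its levels were -1.34 and -2.36 in the HP1 gamma -/- pools, against -3.02 and -3.08 in the wild-type pools (log2 difference 1.20, SE 0.39, limma adjusted p = 0.62). Lama5, the laminin alpha 5 chain of epithelial basement membranes, had 0.17 and -0.34 in the HP1 gamma -/- pools, against -1.18 and -1.31 in the wild-type pools (log2 difference 1.16, SE 0.26, limma adjusted p = 0.48). Itga8, the integrin chain that binds nephronectin, had -2.91 and 0.87 in the HP1 gamma -/- pools, against -0.32 and -1.49 in the wild-type pools, so the HP1 gamma -/- pools lay on both sides of wild type. None of the 15 passed the threshold, and without HP1 gamma -/- replicate 1 the median of the list was 0.19, with 10 genes higher. Without replicate 2 it was -0.60, with 2 genes higher. Many of these genes, such as Col4a1 and Hspg2, are also made by endothelium. Its 12 tested markers were all lower in the HP1 gamma -/- mean, with a median difference of -0.67, where 46.9% of all tested genes were higher. The groups overlapped for Tie1, at 2.14 in HP1 gamma -/- replicate 2, against 1.80 and 2.08 in the wild-type pools. Whether the endothelial share bears on the lower genes of the list was not tested.

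Relatives of the members gave few measurements. Of 9 such genes with a probe 3 could be tested, and 4 were not well above background on any array, the bladder uroplakin genes Upk2 and Upk3a and the genes Upk3bl and Mslnl. The other uroplakin gene, Upk1a, was well above background in HP1 gamma -/- replicate 1 alone. Of the relatives of Lrrn4, Lrrn1 was at least 2.64-fold higher, with levels of -2.77 and -2.22 in the HP1 gamma -/- pools, against -4.31 and -5.13 in the wild-type pools, which did not measure it well above background (limma adjusted p = 0.35). Lrrn3 differed by 1.76 log2 units (SE 0.44, limma adjusted p = 0.52), with levels of -1.28 and -0.12 in the HP1 gamma -/- pools, against -2.37 and -2.54 in the wild-type pools. Lrrn2 went the other way, by -0.42 (limma adjusted p = 0.81). The means of the Lrrn genes thus did not share 1 direction. Lrrn1, like Lrrn4, entered the test through the HP1 gamma -/- arrays alone, so nothing is read from its p.

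**Figure D4:**
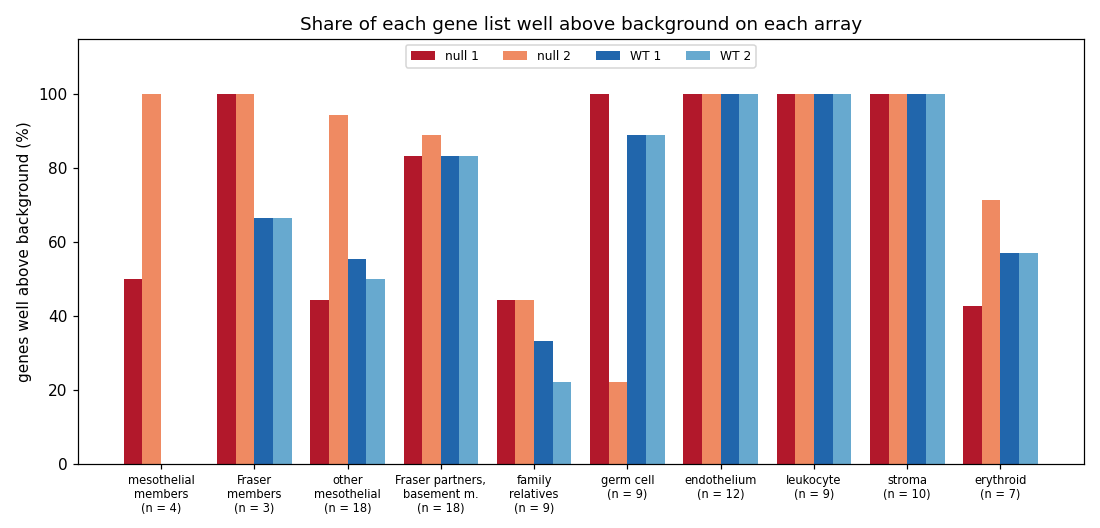
Share of the genes of each list (percent of those with a probe, n under each name) that were well above background in HP1 gamma -/- replicates 1 and 2 (null) and wild-type replicates 1 and 2 (WT). The 4 mesothelial members stand at 2 and 4 genes in the HP1 gamma -/- pools and at 0 in both wild-type pools, while endothelial, leukocyte and stromal genes are all seen in every pool.

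Genes whose levels over the 4 pools were most like those of Lrrn4 and Fras1 were found by the root mean square difference of log2 levels, each gene centred on its own mean, among 11810 other tested genes, leaving out clone and predicted gene names. Closest to Lrrn4 were Pxylp1, Nrtn, Camta1, Car14 and Hsd3b1, at 0.11 to 0.24 log2 units. Nrtn encodes the growth factor neurturin and Hsd3b1 a steroid dehydrogenase. Among the closest to Fras1 were Ddc, Tmem267, Cibar2 and Dpf3, at 0.16 to 0.23 log2 units, where Ddc encodes the decarboxylase that makes dopamine and serotonin. Wild-type levels below background enter these distances, those of Lrrn4 included, and with only 4 points per gene the likeness is a description.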

How the data were processed

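Per the labels' protocols, a low-input kit made Cy3-labelled cRNA from 4 ng of RNA of each pool. The intensity values come, per the file headers, from Agilent Feature Extraction (version 10.7.3.1 per the submitters' processing notes), with background subtraction and detrending within each array. The authors' deposited value table holds the same linear intensity values, within 0.50%, with column medians of 14.5 and 33.4 (HP1 gamma -/- replicates 1 and 2) and 20.6 and 22.6 (wild type), which settles its scale and direction and shows no centring. All 4 arrays share 1 slide and scan.

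Computed here were log2 processed signals minus the array's 75th percentile over 43379 spots. Spots of 1 probe were averaged, outlier spots left out (21 of 41174 probes lost) and saturated spots kept. A probe counts as well above background where no more of its spots fail the mark than carry it. Accessions were matched without versions to RefSeq (GRCm38.p6), naming 26877 probes. A gene is read by its brightest probe. Tested were 22440 probes, those that either genotype showed well above background on both its arrays (limma 3.58.1, R 4.3.3, Python 3.11.15; two-sided, with Benjamini-Hochberg adjustment across the 22440). The limma steps were tested on simulated data. The files hold no mean signal, so normexp used the median signal.

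The members and lists were chosen with earlier results of these data known. Named were all members, up to 6 genes per related list at least 2-fold apart without overlap, Cbx3, Dppa3 and Wt1, and the 5 genes most like Lrrn4 and Fras1, of which 1 is not reported here. Further genes are named as examples or by count. Alternatives were the probe filter, scaling, background correction, the deposited table, the replicate block, a variance trend, the probe used and leaving out each array.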

Additional observations from a re-analysis of the deposited data

How the results depend on the processing

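No tested member changed direction under any alternative that gave it a value. Over all probes 2 passed the threshold. The count was 0 with all probes, 1 with probes well above background on all arrays, 7 with a variance trend, 146 with scaling to spiked-in RNA, 13 with the replicate block and 0 without any 1 array. The replicate numbers share only a number (deviations of same-numbered pools correlated at 0.07 across probes). The block changed no call of Frem2, Msln or Grip1. By mean levels 4 tested member genes were at least 2-fold higher without overlap, Msln among them against wild-type signals below background, but 1 with normexp, whose offset draws dim signals together, and 1 of the 2 genes left when all arrays had to be well above background. Normexp gave log2 differences of 1.56 for Fras1, 0.59 for Lrrn4, 0.33 for Msln and 0.92 for Frem2 (A_51_P214503). Leaving out 1 array gave 2.40 to 3.07 for Fras1, 2.33 to 2.59 for Lrrn4, 1.34 to 2.66 for Msln and 0.67 to 1.20 for Grip1. The limma adjusted p of Frem2 by A_51_P214503 lay between 0.015, with spiked-in scaling, and 0.88, with normexp. By A_52_P5491 it lay between 0.00133 and 0.895 in the same settings. Both probes of Frem2 thus passed the threshold with spiked-in scaling, and neither did with scaling to the 75th percentile. Frem2 entered the test through the HP1 gamma -/- arrays alone, where it was high, so nothing is read from that pass.

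The median of the other mesothelial markers kept its sign (0.86 to 2.16), and 13 of 18 were higher with all probes. For the Fraser partners and basement membrane the median was -0.24 with all probes, -0.32 with quantile normalization, -0.90 with spiked-in scaling (2 genes higher), -0.39 with normexp and -0.33 with the mean of a gene's probes. It ranged from -0.60 to 0.19 (2 to 10 genes higher) without 1 array, reversing without HP1 gamma -/- replicate 1. For the relatives it was 0.37 with all probes (6 genes higher), 0.67 with probes well above background on all arrays (1 higher) and 0.52 with normexp. The cause of these shifts was not tested. Signals near background limit Msln, Upk3b and Upk1b.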
